A study of Mus musculus with 2 samples.

Results

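Axon guidance genes encode the signals that steer growing nerve fibres and the receptors that read them. The set described here held 68 genes, 36 for ligands and 32 for receptors, of 20807 autosomal protein-coding genes in the GENCODE M21 annotation. Members were taken by gene symbol alone: the semaphorins (Sema), slits (Slit), netrins (Ntn and Ntng) and ephrins (Efna and Efnb) as ligands, and the plexins (Plxn), neuropilins (Nrp), roundabouts (Robo), Dcc, the Unc5 proteins and the Eph receptors (Epha and Ephb) as receptors. Of these symbols, 3 X-linked genes (Plxna3, Plxnb3 and Efnb1) were outside the autosomes and were not taken. Open chromatin was mapped by DNase-seq, in which DNase I cuts the DNA that nucleosomes leave exposed and the density of cuts is counted along the genome. The single group was frontal cortex tissue of 14-day-old male B6CASTF1/J mice, the F1 hybrid of a laboratory and a wild-derived strain, with no genetic change or treatment named in the labels. It held 2 libraries, called replicates 1 and 2, and the label of each names 3 males. Their biosamples were separate and their donor number was the same, so part of the gap between them may be technical, and with 1 group there was no contrast to test.

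Guidance cues act over short or long range, attract or repel, and are read by receptors on the growth cone. Semaphorins signal through plexins, with neuropilins as co-receptors for most of the secreted class, slits through roundabouts, netrins through Dcc and Unc5, and ephrins through the Eph receptor tyrosine kinases. In the postnatal cortex many of the same proteins act at synapses and dendrites after the long tracts have formed.

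In this tissue most guidance genes had an open promoter, and most of those promoters were low. A peak within 1000 bp of an annotated start site was called in both libraries at 55 of the 68 genes (80.9%), against 60.8% of all autosomal protein-coding genes. The receptors with one numbered 29 of 32 (90.6%) and the ligands 26 of 36 (72.2%). None of the 4 netrins had one in both libraries. Where the tallest peaks of both libraries lay in 1 region, the median height was 1.75 for 49 guidance genes and 3.21 for 12019 of all genes. Over every gene with a peak in both libraries, the guidance medians were 1.68 and 1.70 in replicates 1 and 2, against 3.09 and 3.03. Heights are the authors' deposited signal values, which are scaled per library. Away from promoters, 57 of the 68 genes (83.8%) held at least 1 open region shared by both libraries, against 47.4% of all genes. Guidance genes are longer, with a median of 63.7 kb against 17.6 kb, and this share was not set beside genes of like length. Pooled over gene spans and flanks, the number of such regions per 10 kb was 0.169 for guidance genes and 0.166 for all genes. Bulk tissue gives 1 signal for all its cells, so fewer open cells and less opening per cell cannot be told apart.

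The tallest promoter regions of 6 families show what the data resolve inside such a region. The bases in capitals lie in a footprint of both libraries, a footprint being a short stretch with fewer cuts than its surroundings inside an open region, where a bound protein may shield the DNA. Each sequence was read from mm10, runs 5′ to 3′ on the strand of the gene, and is cut back where the region overlaps an annotated exon.
Ephb3 promoter: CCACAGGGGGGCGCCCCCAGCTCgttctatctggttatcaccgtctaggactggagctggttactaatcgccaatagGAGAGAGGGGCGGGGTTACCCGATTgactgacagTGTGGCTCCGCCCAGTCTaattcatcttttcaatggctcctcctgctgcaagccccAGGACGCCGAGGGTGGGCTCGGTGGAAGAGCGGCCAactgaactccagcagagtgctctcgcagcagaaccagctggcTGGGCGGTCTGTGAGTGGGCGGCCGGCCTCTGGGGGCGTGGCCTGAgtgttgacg
Efnb2 promoter: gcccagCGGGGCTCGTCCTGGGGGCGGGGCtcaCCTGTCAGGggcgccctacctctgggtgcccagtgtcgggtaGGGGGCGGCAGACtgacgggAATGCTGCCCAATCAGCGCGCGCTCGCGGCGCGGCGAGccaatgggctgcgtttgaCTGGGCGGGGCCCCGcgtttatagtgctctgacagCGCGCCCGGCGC
Epha7 promoter: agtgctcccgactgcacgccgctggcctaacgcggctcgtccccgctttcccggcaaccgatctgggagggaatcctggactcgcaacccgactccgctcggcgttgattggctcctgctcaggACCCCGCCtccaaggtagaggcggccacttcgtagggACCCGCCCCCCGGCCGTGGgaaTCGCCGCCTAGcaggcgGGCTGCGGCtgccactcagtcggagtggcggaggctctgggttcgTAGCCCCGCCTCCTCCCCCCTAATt
Sema4b promoter: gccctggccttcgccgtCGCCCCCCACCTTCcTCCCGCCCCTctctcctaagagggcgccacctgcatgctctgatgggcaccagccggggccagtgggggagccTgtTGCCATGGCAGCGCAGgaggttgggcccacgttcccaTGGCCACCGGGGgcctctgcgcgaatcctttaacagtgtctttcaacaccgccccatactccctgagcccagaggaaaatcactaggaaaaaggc
Plxnc1 internal promoter: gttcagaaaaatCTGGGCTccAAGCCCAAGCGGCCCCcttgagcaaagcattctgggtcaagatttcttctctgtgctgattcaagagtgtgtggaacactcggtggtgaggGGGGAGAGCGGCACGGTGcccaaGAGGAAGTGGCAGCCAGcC
Robo3 internal promoter: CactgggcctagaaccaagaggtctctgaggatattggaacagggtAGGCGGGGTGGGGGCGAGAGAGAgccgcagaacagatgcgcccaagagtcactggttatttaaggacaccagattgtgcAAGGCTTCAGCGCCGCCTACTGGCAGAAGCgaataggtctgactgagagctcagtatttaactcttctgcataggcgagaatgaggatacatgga
The Ephb3 stretch is chr16:21204421-21204720 (plus strand) and ends just before the annotated gene start. Efnb2 is chr8:8661243-8661440 (minus strand), Epha7 chr4:28812861-28813130 (plus), Sema4b chr7:80187041-80187280 (plus), Plxnc1 chr10:94829547-94829700 (minus) and Robo3 chr9:37430661-37430880 (minus). The Ephb3, Efnb2 and Epha7 stretches lie upstream of the gene. That of Sema4b lies just inside its gene, and those of Plxnc1 and Robo3 lie deeper, beside annotated internal start sites. Footprinted bases made up 148 of the 300 bases at Ephb3 and 111 of the 198 at Efnb2, but 71 of the 270 at Epha7. The letters GGGCGG of the GC box, which Sp-family factors bind, occur on either strand 4 times at Ephb3 and 3 times at Efnb2, wholly in capitals each time. A CTCF core, searched as CC, 3 free bases, AG, 2 free bases and GGC, stands in capitals at Robo3.

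Distal regions, more than 1000 bp from every annotated start site of protein-coding genes, are shown in the same way for 4 of the 5 genes with the tallest ones. The one of Epha4, also among the tallest, lies wholly in an annotated exon of the noncoding gene Gm28386 and is not shown.
Sema3b upstream: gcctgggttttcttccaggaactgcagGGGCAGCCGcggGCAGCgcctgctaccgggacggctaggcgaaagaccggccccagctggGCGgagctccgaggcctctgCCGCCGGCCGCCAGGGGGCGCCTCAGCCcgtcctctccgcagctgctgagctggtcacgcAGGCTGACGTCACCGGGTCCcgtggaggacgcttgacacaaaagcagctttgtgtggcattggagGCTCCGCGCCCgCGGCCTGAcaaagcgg
Slit1 intron: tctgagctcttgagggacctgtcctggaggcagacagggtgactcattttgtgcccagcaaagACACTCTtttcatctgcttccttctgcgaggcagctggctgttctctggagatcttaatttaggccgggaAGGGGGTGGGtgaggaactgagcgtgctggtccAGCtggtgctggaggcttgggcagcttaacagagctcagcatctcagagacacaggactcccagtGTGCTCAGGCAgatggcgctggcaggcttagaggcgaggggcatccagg
Ntn3 upstream: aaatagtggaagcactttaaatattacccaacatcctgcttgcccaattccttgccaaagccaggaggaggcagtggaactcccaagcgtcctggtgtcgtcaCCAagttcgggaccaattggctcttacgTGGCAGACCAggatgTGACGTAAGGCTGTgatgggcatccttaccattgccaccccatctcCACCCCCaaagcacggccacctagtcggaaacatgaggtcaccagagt
Unc5b downstream: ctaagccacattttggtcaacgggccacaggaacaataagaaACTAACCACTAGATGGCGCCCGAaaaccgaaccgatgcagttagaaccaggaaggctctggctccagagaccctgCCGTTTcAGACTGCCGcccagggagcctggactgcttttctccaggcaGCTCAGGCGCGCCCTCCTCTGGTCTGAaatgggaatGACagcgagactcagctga
Sema3b is chr9:107612701-107612960, Slit1 chr19:41697501-41697780, Ntn3 chr17:24212281-24212520 and Unc5b chr10:60760481-60760700, all on the minus strand of their genes. Footprints of both libraries covered 84 of 260 bases at Sema3b and 68 of 220 at Unc5b, and only 31 of 280 at Slit1 and 34 of 240 at Ntn3. The longest capital run at Sema3b, 28 bases, holds a CTCF core, and another run holds TGACGTCA, the cAMP response element (CRE). At Unc5b a CTCF core also stands in capitals. At Slit1 and Ntn3 no searched motif lay wholly in capitals.

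Replicate 1 held 75753 peaks and 156390 footprints, and replicate 2 held 77035 peaks and 202779 footprints, so a footprint count runs higher in replicate 2 in general. Markers set the tissue label beside the data: in both libraries promoter peaks were called at 7 of 8 excitatory cortical neuron genes (not at Slc17a7), at 3 of 5 interneuron genes, and at none of the hindbrain and spinal cord genes Hoxb4, Hoxc6 and En1 or the liver genes Alb and Apoa2. Of other cell types 1 of 4 astrocyte, 0 of 3 oligodendrocyte, 1 of 2 oligodendrocyte precursor, 1 of 3 microglia and 1 of 3 endothelial genes had one.

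**Figure D1:**
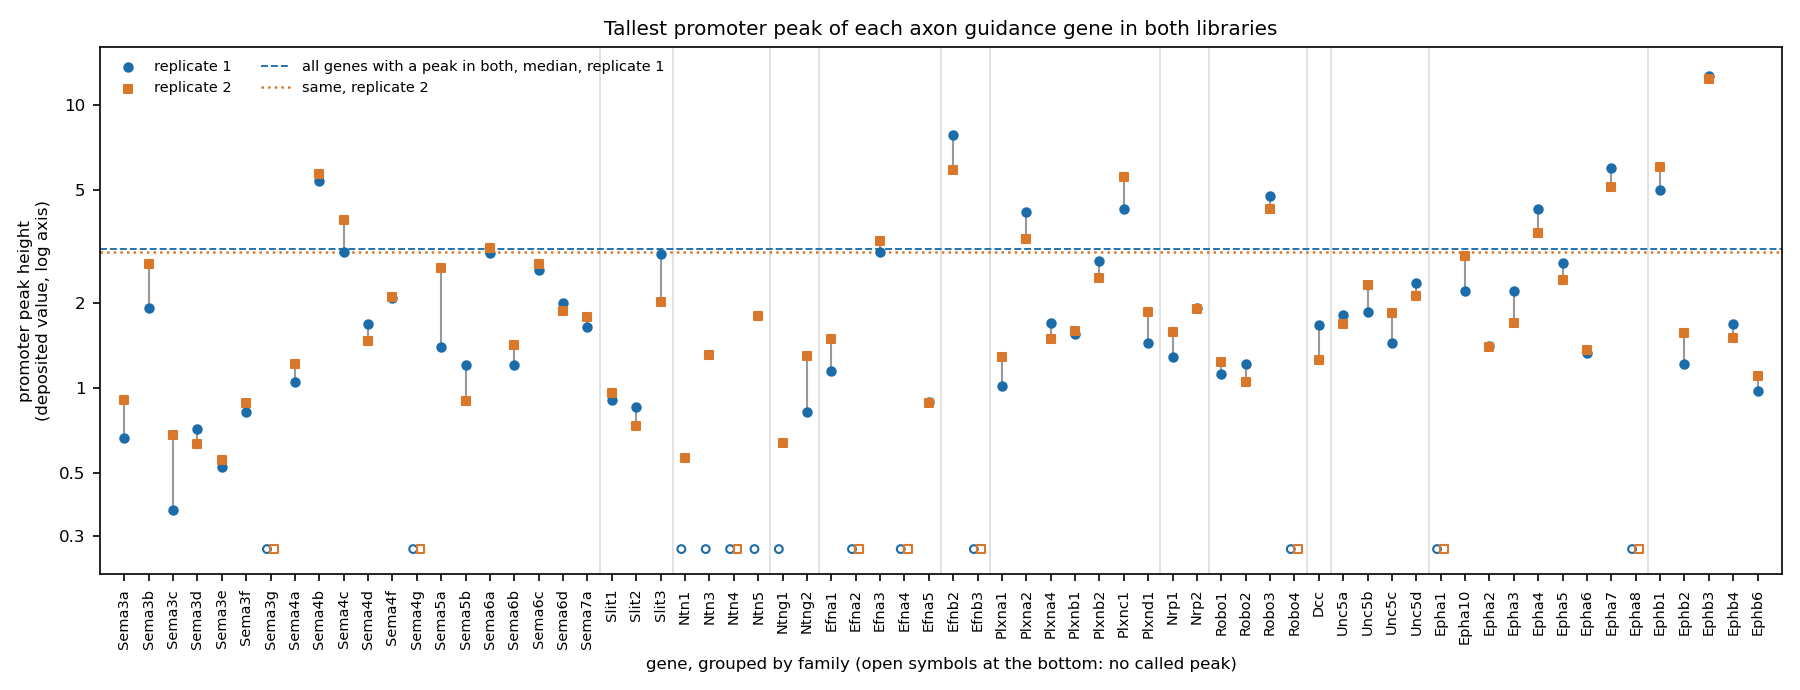
Height of the tallest promoter peak of each of the 68 genes in replicate 1 (blue circles) and replicate 2 (orange squares), on a log axis, with genes grouped by family and open symbols at the bottom where no peak was called. The dashed and dotted lines mark the all-gene medians of 3.09 and 3.03, taken over genes with a peak in both libraries. Against the medians of all genes with a peak in the single library, 3.00 and 2.87, 44 and 42 of the 55 members with a peak in both lie lower.

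Among the ligands, the semaphorins formed the largest family and 18 of the 20 had a promoter peak in both libraries. Sema4b, a transmembrane semaphorin of class 4, was the tallest at 5.37 in replicate 1 and 5.71 in replicate 2. Sema4c of the same class followed at 3.03 and 3.91, then Sema4f at 2.08 and 2.10. Sema4d, a ligand of plexin B1, had 1.68 and 1.47 at an internal start site 16.5 kb into the gene. Sema4a reached 1.05 and 1.22, in different regions. Class 6 semaphorins, transmembrane ligands of A plexins, had peaks at all 4 genes, with a family median of 2.30 and Sema6a highest at 3.00 and 3.13. Sema6c had 2.60 and 2.74, Sema6d 1.99 and 1.87, and Sema6b 1.21 and 1.42. The Sema6d values belong to a region 520342 bp inside the gene, and near its gene start the tallest peaks had 0.728 and 0.809. The 2 class 5 genes, Sema5a and Sema5b, had a median of 1.54, Sema5a with 1.40 and 2.64 and Sema5b with 1.21 and 0.901. The Sema5a region lay in an intron, 938 bp from the nearest start site. Sema7a, a membrane-anchored ligand of plexin C1, stood at 1.65 and 1.78.

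The secreted class 3 semaphorins lay lowest. Sema3c had heights of 0.370 and 0.684, Sema3e, a ligand of plexin D1, had 0.525 and 0.559, and Sema3d had 0.717 and 0.634. Sema3a, the classical repellent of cortical axons, reached 0.669 and 0.909, and its peak lay 273997 bp into the gene at an internal start site. These values placed Sema3c, Sema3d and Sema3e below the 8th percentile of all promoter peaks in both libraries. The exception in the class was Sema3b at 1.91 and 2.74, at the 33.3 and 48.3 percentiles. That peak lay 7008 bp into the gene at an internal start site, and none was called at the gene start. Sema3f reached 0.824 and 0.884, in different regions. Sema3g, also of class 3, and Sema4g had no promoter peak in either library. Around Sema3g no base was listed in the deposited cut rate track, which lists bases with a false discovery rate below 0.05, and around Sema4g 1 base was listed, in replicate 1, with a rate of 0.0443.

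All 3 slits, secreted repellents read by roundabouts, had a promoter peak in both libraries. Slit3 was highest at 2.96 and 2.01, in an intron 57077 bp from the gene start and 378 bp from an internal start site. At its gene start no peak was called in both libraries. Slit1 had heights of 0.908 and 0.959, and Slit2 had 0.860 and 0.734. Slit1 and Slit2 lay below the 14th percentile in both libraries. At Slit2 the signal was spread out, with 5 peaks in replicate 1 and 8 in replicate 2 over 1453 and 3008 listed bases.

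No netrin had a promoter peak in both libraries, against 82.3% of all genes in the same deciles of promoter GC content. Ntn1, the founding netrin and a ligand of Dcc and Unc5, had no promoter peak in replicate 1 and 5 in replicate 2, the tallest at 0.567. Ntn3 had none in replicate 1 and 6 in replicate 2, the tallest at 1.31. No base of either gene's windows was listed in the cut rate track of replicate 1, against 903 bases at Ntn1 and 2058 at Ntn3 in replicate 2. Ntn4, a netrin of basement membranes, had neither a peak nor a listed base in either library. At Ntn5 the difference was one of position: a region with heights of 1.72 and 1.80 lay at the rim of the window, chr7:45682821-45683040, and only the replicate 2 peak reached into it. In the whole window 0 bases were listed in replicate 1 and 53 in replicate 2. In replicate 2 alone 3 of the 4 netrins would count, so the family's count turns on replicate 1. Over all genes 553 had a promoter peak in replicate 2 alone and 311 in replicate 1 alone.

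Of the netrin-G genes, whose membrane-anchored products bind Lrrc4c and Lrrc4 across synapses, Ntng2 had heights of 0.824 and 1.29 and Ntng1 had a peak in replicate 2 alone, at 0.642. Both Ntng1 peaks of replicate 2 were at a place where replicate 1 listed no base.

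The ephrins divided within each class. Efnb2, a transmembrane ephrin also known as a marker of arteries, had the tallest promoter of any ligand at 7.81 and 5.90 (mean 6.86 ± 1.35, SD, n = 2). Efnb3 had no promoter peak and no listed base in either library. Efna3 stood at 3.03 and 3.29 and Efna1 at 1.15 and 1.48, both membrane-anchored ephrins. Efna5 had low and broad signal, with 6 and 5 peaks none of which passed 0.896, and its tallest peaks lay in different regions in the 2 libraries. Efna2 and Efna4 had no promoter peak and no listed base in either library.

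**Figure D2:**
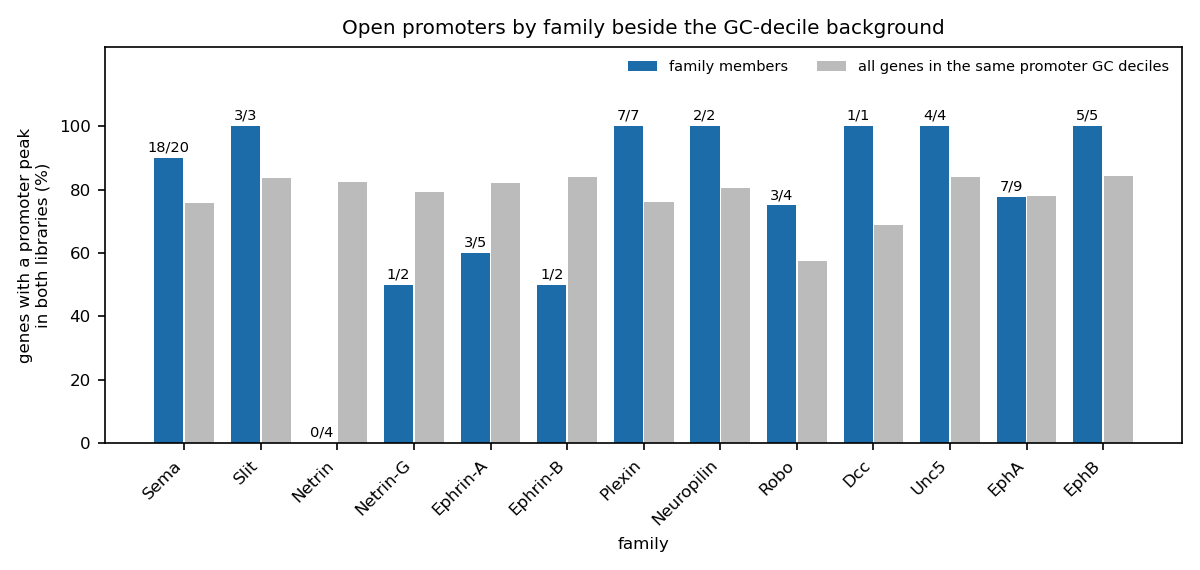
Share of each family with promoter peaks in both libraries (blue bars, with the number of genes above), beside the share among all genes in the same promoter GC deciles (grey bars), on an axis from 0 to 100%. The Slit, Plexin, Neuropilin, Dcc, Unc5 and EphB bars reach 100%, and the Netrin bar is at 0 beside a grey bar of 82.3%.

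On the receptor side, all 7 plexins had a promoter peak in both libraries. Plxnc1, the receptor of Sema7a, was highest at 4.29 and 5.58, and that peak lay at an internal start site 115254 bp from the gene start. Plxna2 reached 4.19 and 3.37, while Plxna1 had only 1.02 and 1.28. Plxnd1, known for its role in vessels, had 1.44 and 1.86, and Plxnb1, a receptor of Sema4d, had 1.55 and 1.58. At Plxna4 (1.70 and 1.48) and Plxnb2 (2.82 and 2.44) the tallest peaks of the 2 libraries fell in different regions. The replicate 1 peak of Plxnb2 lay 11137 bp into the gene, 928 bp from the nearest start site. The neuropilins were both open, Nrp2 at 1.92 and 1.90 and Nrp1 at 1.29 and 1.58.

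Roundabouts differed among themselves. Robo3, a receptor of commissural axons, had heights of 4.78 and 4.28, but the peak lay 2475 bp inside the gene beside an internal start site and none was called at the gene start. Robo1 and Robo2, the slit receptors of the forebrain, were low, Robo1 at 1.12 and 1.23 in a peak 354785 bp inside the gene and Robo2 at 1.22 and 1.05. Robo4, best known from endothelium, had no promoter peak and no listed base in either library. The netrin receptors all had open promoters: Dcc had heights of 1.67 and 1.26, and the 4 Unc5 genes ran from Unc5c, at 1.44 and 1.83, to Unc5d, at 2.35 and 2.12, in the order of their means. Unc5a had 1.82 and 1.68 and Unc5b had 1.86 and 2.31, so that in replicate 2 alone Unc5a was lowest and Unc5b highest.

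The tallest promoter of the set was that of an Eph receptor. Ephb3 reached 12.6 in replicate 1 and 12.4 in replicate 2 (mean 12.5 ± 0.200, SD, n = 2), at the 97.3 and 97.0 percentiles, and was the only member above the 90th percentile in both libraries. Ephb1 followed in its family at 4.99 and 6.05. Ephb2, a synaptic Eph receptor, had only 1.22 and 1.57, and Ephb4, the partner of Efnb2 in vessels, 1.68 and 1.50. Ephb6, which lacks kinase activity, had its tallest peaks in different regions, at 0.979 and 1.10.

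Promoter peaks were called in both libraries at 7 of the 9 EphA genes. Epha7 was highest at 5.96 and 5.15, with 6 promoter peaks in each library, and Epha4 followed at 4.28 and 3.53. Epha5 had 2.77 and 2.40, Epha3 had 2.20 and 1.70, and Epha10, which like Ephb6 lacks kinase activity, had 2.21 and 2.92. Epha2, with 1.41 and 1.40, lay below these in both libraries. The Epha10 region lay 642 bp from the nearest start site. Epha6 was lowest at 1.33 and 1.37, in a region 1120 bp wide. Epha1 and Epha8 had no promoter peak and no listed base in either library. Over all members, bases were listed in the promoter windows in both libraries at 55 genes, the same number as for peaks, against 61.7% of all genes.

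The promoter share and the heights were set beside genes of like make-up. Member promoters were rich in G and C, with a median of 58.3% over the 2000 bp around the gene start, against 51.5% for all genes. The 55 members with a promoter peak in both libraries stand beside the 52.9 that the share among genes in the same GC deciles, 77.7%, would give. Members also had a median of 4.5 annotated start sites, against 3 for all genes, so more sites at which a peak could count. With the gene start alone the share was 70.6%, against 55.9% of all genes. Sema3a, Sema3b, Sema4a, Sema4d, Slit3, Robo1 and Robo3 then no longer counted. The receptors' 90.6% stands beside 76.7% in their GC deciles, and the ligands' 72.2% beside 78.7%. The median member stood at the 28.7 and 30.7 percentiles of all promoter peaks in replicates 1 and 2, at the 26.9 and 32.4 percentiles within its own GC decile, and at the 32.0 and 39.4 percentiles within its own decile of gene length. Of the 55 members with a promoter peak in both libraries, 11 lay below the 20th percentile in both. The share over all genes is not given here, so this count is not read as an excess. Each of these percentiles for the median member lies below 50, also within GC and length deciles.

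Heights were also set beside the layout of neighbouring genes. Of the 56 guidance genes with a shared promoter region, 0 had their tallest one within 1000 bp of a start site of another protein-coding gene, against 20.8% of all genes with such a region. The members' median of 1.75 lay below the 2.83 of all genes whose region is not near another gene's start, as well as below the 4.79 of those whose region is.

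The libraries gave close heights for most members. Of the 49 members whose tallest peaks lay in 1 region, 21 were taller in replicate 1 and 28 in replicate 2. As a ratio the widest gaps were at Sema5a, with 1.40 and 2.64, and at Sema3c, with 0.370 and 0.684, and as a difference at Efnb2, with 7.81 and 5.90, and at Plxnc1, with 4.29 and 5.58. Replicate 2 had more promoter peaks at 22 members and replicate 1 at 9. Such counts over all genes are not given here, and replicate 2 also held more peaks in all, 77035 against 75753. The other 6 members with peaks in both, Sema3f, Sema4a, Efna5, Plxna4, Plxnb2 and Ephb6, had their tallest peaks in different regions, and no mean was taken there.

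Footprints of each library were called in a shared promoter region at 54 of the 68 genes (79.4%), against 58.3% of all genes. Only genes with a shared promoter region can count here, so this share follows that of the promoter peaks. Among genes with such a region it was 54 of 56 members and 12139 of 12607 of all genes. The tallest regions held footprints of both libraries in 92.9% of members, against 95.4% of the tallest promoter regions of all genes. Ntn5 is counted here through the region at the rim of its window. The tallest promoter regions of 56 members held 208 footprints in replicate 1 and 275 in replicate 2. Of these, 63.0% and 45.5% overlapped a footprint of the other library, against 73.5% and 61.2% in the tallest promoter regions of all genes. At Efnb2 all 7 and all 8 footprints overlapped one of the other library, and at Ephb3 all 5 and all 5. Other tall promoters overlapped in part, with 5 of 6 and 4 of 6 at Epha7, 4 of 6 and 4 of 5 at Sema4b, and 5 of 5 and 5 of 7 at Ephb1. Low promoters differed among themselves. At Plxnd1 4 of 5 and 5 of 5 overlapped, and at Ephb4 3 of 3 and 3 of 4. The Slit2 region held 0 footprints in replicate 1 and 6 in replicate 2, and the Robo1 region held 0 and 8. Unc5c held 3 and 12, and Epha6 8 and 13. Sema3d, with 0 and 3, and Slit1, with 0 and 2, had a promoter peak in both libraries but footprints in replicate 2 alone.

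Motifs were searched as fixed letters on both strands in the RefSeq promoter sequences of assembly GRCm38.p6, 250 bases before to 50 after the start, which were matched for 58 of the 68 members and 15686 genes in all. The GC box (GGGCGG) occurred in 43 of 58 member promoters (74.1%), against 48.8% of all promoters. The ETS letters CCGGAAG occurred in 2 (3.45%, against 12.6% of all), and the NRF1 letters, GCGC, 1 free base and TGCGC, in 0 of 58 (against 7.08% of all). The CTCF core was as frequent in members, 6 of 58 (10.3%), as in all promoters (10.4%). The other motifs occurred in 5 member promoters or fewer: the E-box CAGATG in 5 (8.62%, against 14.7% of all), the RE1 letters TCAGCACC in 2 (3.45%, against 1.62%), the cAMP response element TGACGTCA in 1 (1.72%, against 2.47%), the AP-1 letters TGANTCA in 1 (1.72%, against 7.02%), the YY1 letters AAGATGG in 1 (1.72%, against 6.42%) and the MEF2 letters, CTA, 4 free bases and TAG, in 0 (against 3.46%). The GC content of member promoters differs from that of all genes, so these shares are counts of letters and not of sites. No string searched contains another, but matches may overlap.

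Distal regions were counted over the gene span plus 10 kb on both sides. Members held 229 gene and region pairs, 228 of them distinct, because Robo3 and Robo4 share the region chr9:37420789-37421053. The median was 2 regions per member and 0 per gene over all genes, and the means were 3.37 and 1.15. Guidance genes are long, with a median of 63.7 kb against 17.6 kb for all genes, and genes in the same deciles of length held 2.59 on average. Per 10 kb of gene span and flanks, the members' median was 0.207 and that of all genes 0, and the means were 0.259 and 0.170. Pooled over the whole length the figures were close, 0.169 for members and 0.166 for all genes. These numbers depend on the list and on asking for both libraries: the members' median was 3 regions in replicate 1 alone and 4 in replicate 2 alone, and with the shorter, stricter peak list it was 1, at a median density of 0.0217. The all-gene median density of 0 also depends on this: it was 0.145 in replicate 1 alone, beside 0.245 for members, and 0.142 in replicate 2 alone, beside 0.283 for members. With flanks of 50 kb the medians were 0.202 for members and 0.146 for all genes, and with distances taken from gene starts alone 0.249 and 0.101.

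Split by length, the picture differed between short and long members. The 33 members over 100 kb had a median of 5 regions, against 3 for the 2372 genes of that size, but a lower median density, 0.128 against 0.147 per 10 kb, and their own median length was greater, 277 kb against 169 kb. The 35 members up to 100 kb had a median density of 0.285, against 0 for all such genes. Promoter peaks in both libraries were called at 30 of the 33 long members (90.9%, against 84.4% of long genes) and at 25 of the 35 short ones (71.4%, against 57.8%).

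**Figure D3:**
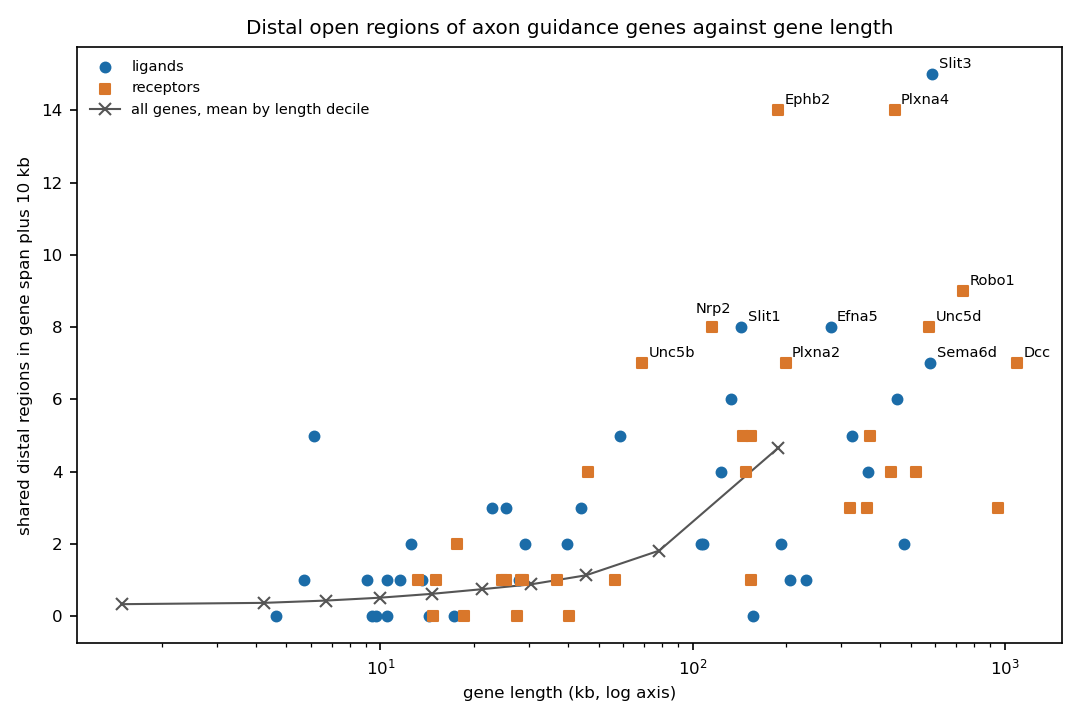
Number of shared distal regions in the gene span plus 10 kb on each side (vertical axis) against gene length in kb (log axis) for ligands (blue circles) and receptors (orange squares), with crosses for the mean of all genes in each length decile. Slit3 with 15 regions and Ephb2 and Plxna4 with 14 each lie highest, and several members longer than 300 kb have 5 or fewer.

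The 3 slits held 28 distal regions and the 20 semaphorins 44. Slit3 had 15 over 587 kb, of which 14 were intronic and 1 upstream. Slit1 had 8, among them the tallest slit region of all at 3.79 and 3.54, in an intron 46.0 kb from the gene start, where its own promoter peak had 0.908 and 0.959. The 3 slits averaged 9.33 regions, against 4.66 for genes of their length decile. Semaphorins averaged 2.20, against 2.35 in their deciles, and Sema6d held the most with 7. Sema3c, Sema4c, Sema4g and Sema6b had none.

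The tallest distal region of any member lay 3602 bp upstream of Sema3b, with heights of 5.39 and 5.96, above that gene's promoter peak of 1.91 and 2.74. Efna5 held 8 distal regions, 4 of them in a row between 1.62 and 3.04 kb upstream of the gene start, with the tallest at 2.05 and 1.80. Efnb3, without a promoter peak, held 5 regions, 1 in an intron of the 6.11 kb gene and 4 downstream, the highest density of the set at 1.91 per 10 kb of gene and flanks. Of these, 2 lie inside the neighbouring gene Dnah2, so the regions cannot be assigned to Efnb3 alone. Netrins held few: Ntn1 and Ntn4 had 2 each, Ntn3 had 1 and Ntn5 none, and the Ntn3 region stood at 3.16 and 3.11, 2.87 kb upstream. Ntng2 held 5 and Ntng1 4.

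Receptor families also differed in distal regions. Plexins averaged 4.57 distal regions, against 2.54 in their length deciles, led by Plxna4 with 14, Plxna2 with 7 and Plxnc1 with 5, while Plxnd1 had none. The EphB genes averaged 4, against 2.32, but 14 of their 20 regions belonged to Ephb2. EphA genes averaged 1.78, against 2.98, although several are long: Epha6, of 952 kb, held 3 and Epha7, of 154 kb, held 1. Nrp2 held 8 and Nrp1 5. Robo1 held 9 over 738 kb, Unc5d 8, and Unc5b and Dcc 7 each. Ephb3, whose promoter was the tallest of the set, had no distal region, as did Efna1, Efna4, Ntn5, Epha1 and Epha8.

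**Figure D4:**
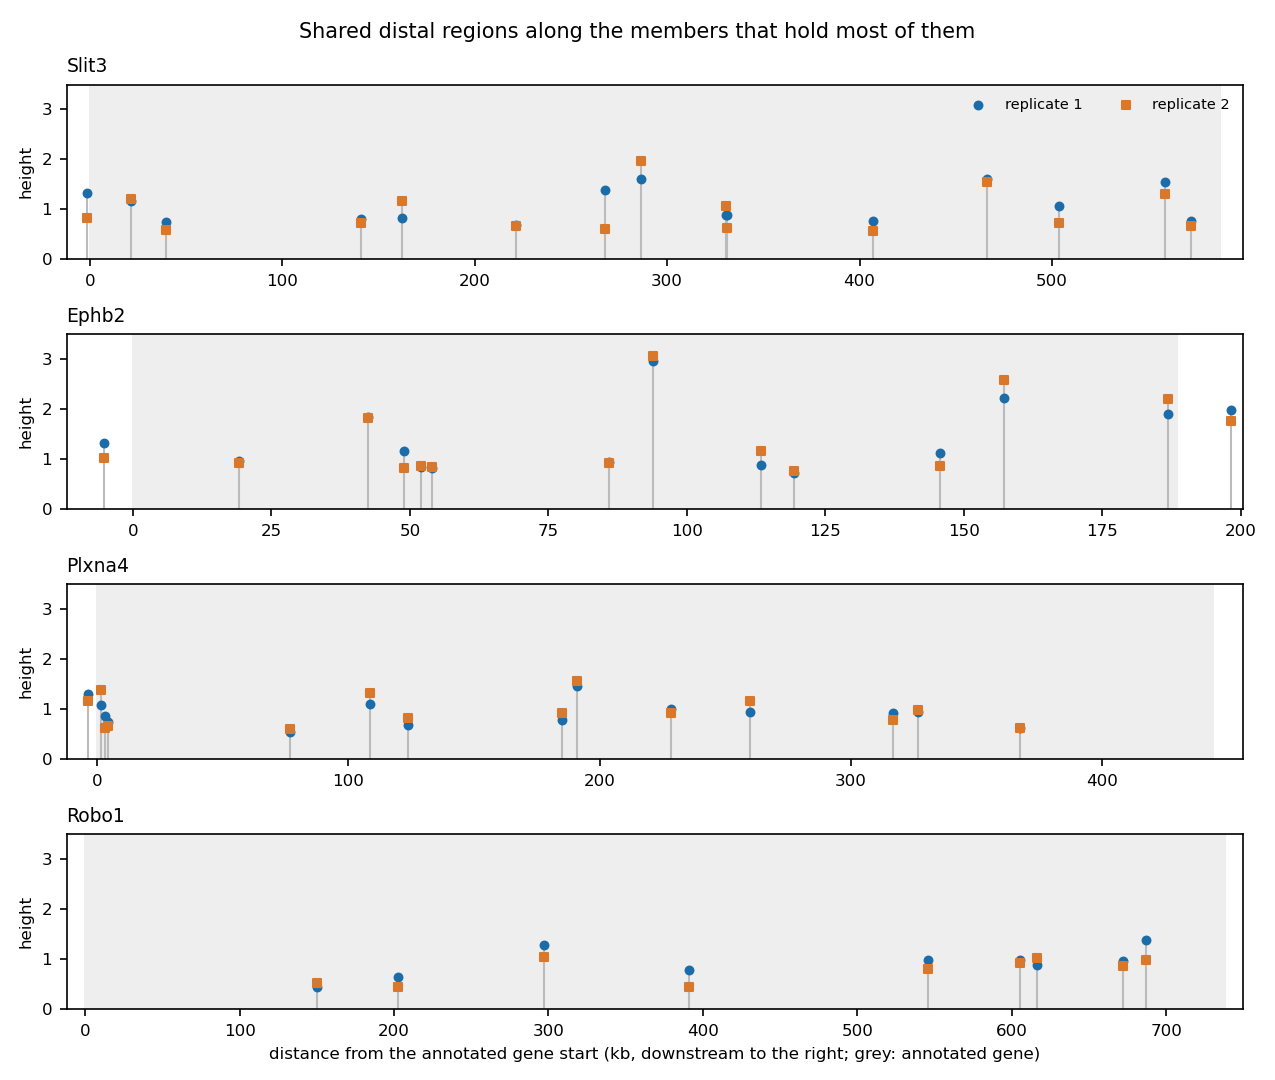
Shared distal regions along Slit3, Ephb2, Plxna4 and Robo1, with distance from the annotated gene start in kb on the horizontal axis, peak height in the deposited values on the vertical axis, replicate 1 as blue circles, replicate 2 as orange squares and the annotated gene in grey. The highest region is the one of Ephb2 93.9 kb into the gene, at 2.96 and 3.06, and the Robo1 regions start 150 kb into the gene.

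Ephb2 combined a low promoter with tall distal regions. Its intronic region at chr4:136741881-136742200 had heights of 2.96 and 3.06, another 157 kb into the gene had 2.22 and 2.59, and its promoter 1.22 and 1.57. At Epha4, the receptor for both ephrin classes, the tallest distal region (3.87 and 3.58) lay 1.28 kb upstream, just outside the promoter window, and the promoter itself stood at 4.28 and 3.53. At Unc5b the tallest region (3.13 and 2.97) lay beyond the end of the gene, and no other protein-coding gene spans it.

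A distal region was taller than the tallest promoter peak in both libraries at 13 of the 49 members that have both kinds, 26.5%, against 20.6% of all such genes. These were Efna5, Epha6, Ephb2, Nrp1, Ntng2, Plxna1, Sema3b, Sema3f, Sema4a, Sema5b, Sema7a, Slit1 and Unc5b. The distal heights themselves were ordinary, with members' medians of 0.908 and 0.917 in replicates 1 and 2 against 0.931 and 0.851 over all distal regions.

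By position, 169 of the 229 pairs (73.8%) lay in introns of the member, against 57.5% of all gene and region pairs. Upstream of the gene lay 23, a smaller share than the 14.7% of all pairs, and downstream 19, or 8.30%, against 19.1%. Coding exons were overlapped by 14 (6.11%, against 5.38%), and UTRs and noncoding exons by 2 each. In a longer gene the flanks make up less of the length counted. Inside another protein-coding gene lay 8 regions, at Sema6a, Ntn1, Efnb3, Robo4, Ephb2, Ephb4 and Ephb6.

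Distal footprints of members were like those elsewhere. The 228 regions held 454 footprints in replicate 1 and 550 in replicate 2, of which 51.3% and 41.6% overlapped one of the other library, against 52.5% and 42.2% over all distal regions. At least 1 footprint of each library was present in 172 regions (75.4%, against 74.3%), and footprints of the libraries overlapped in 137 (60.1%, against 57.8%). In the central 200 bases, the CTCF core occurred in 40 of the 228 (17.5%, against 18.2% of 33878 regions), and at 22 of these a match lay in footprints of both libraries (55.0%, against 59.9%). The E-box CAGATG, a sequence bound by neuronal basic helix-loop-helix factors, occurred in 53 (23.2%, against 24.6%). At 6 of these a match lay in footprints of both libraries (11.3%, against 14.0%). The AP-1 letters occurred in 15 (6.58%, against 10.7%), the GC box in 21 (9.21%, against 10.1%), the YY1 letters in 6 (2.63%, against 3.85%) and the MEF2 letters in 5 (2.19%, against 3.18%), and the remaining motifs in 1 region each.

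Beyond the ligands and receptors, 29 of 30 cytoplasmic and modulator genes of the pathway had a promoter peak in both libraries (Dock1 in replicate 1 alone). Their median height was 2.89, with a median of 2.5 distal regions. Over all genes the share was 60.8%, the median height 3.21 and the median number of distal regions 0. Tall promoters were found at Rhoa, the small GTPase of growth cone collapse (16.2 and 15.4), at the Robo effector Srgap2 (11.3 and 11.7), at the actin regulator kinase Limk1 (11.3 and 11.2), at the adaptor Nck1 (9.91 and 10.3) and at Dpysl2, a semaphorin signalling protein (mean 9.70). Rhoa stood above Ephb3, and the other 4 lay between Ephb3 and Efnb2. Low promoters of the same list were those of Nck2 (1.10 and 1.08) and Srgap1 (1.07 and 1.26). Of 12 other guidance ligands, receptors and co-receptors 9 were open at the promoter in both libraries, with a median of 3 distal regions. Their median height was 2.82, also below that of all genes. Among them Dscam, a netrin-binding adhesion protein, held 18 distal regions, and Lrrc4, the partner of Ntng2, lacked a promoter peak in replicate 1, while Lrrc4c, the partner of Ntng1, had 1.10 and 2.12 in different regions.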

How the data were processed

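The 2 DNase-seq libraries were used as the authors deposited them, separately for each library. The deposited file descriptions name the assembly mm10. The deposited signal value of each peak is its height. Its scale was set for each library and is not stated, so it is used to describe and rank peaks. The deposited cut rates list bases with a false discovery rate (q-value) below 0.05, and the deposited footprints carry the constant 0.01 in that column, so a footprint has no strength of its own. The aligner, the peak and footprint callers and their versions are not given in the sources used here, nor is read depth, so no counting interval is given and the 2 libraries' own values show the precision. F1 hybrid reads that differ from the mm10 reference could lower some heights, and this was not tested. The longer of the 2 peak lists of each library was used and the shorter as an alternative.

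A promoter was 1000 bp on both sides of every transcript start site that GENCODE M21 lists for genes classed as protein-coding. A counted site need not begin a coding transcript: the tallest promoter regions of Plxnc1, Sema4d, Sema6c and Epha6 were placed in noncoding exons. Shared regions were peaks of both libraries overlapping by at least 1 bp, joined. Distal regions were those farther than 1000 bp from every counted start site. Density is per 10 kb. Where the libraries' tallest promoter peaks lay in different regions no mean was taken. Percentiles are among all genes with a promoter peak in that library. GC content was taken over 2000 bp around the gene start, and the GC and length backgrounds are means over deciles weighted by the members in each. Values are descriptions with no p-value.

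The members and lists were chosen with earlier results of these data known, and the split at 100 kb, the check for neighbouring starts and the comparison of distal with promoter heights were added after values were seen. Named are the tallest and lowest promoter and the most distal regions of each family, members without a promoter peak in both libraries, the 10 tallest promoters, the 10 with most distal regions and the tallest distal regions, with further members to complete each family. On simulated data of 500 genes, 200 of 200 planted promoter peaks were recovered. Python 3.11.15, numpy 2.4.6, pandas 2.3.3, pysam 0.24.0 and matplotlib 3.10.9 were used.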

Additional observations from a re-analysis of the deposited data

How the results depend on the processing

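The number of members with a promoter peak in both libraries kept within 1.5 times of 55 in every alternative run. It ran from 45 with the shorter peak list (66.2%, against 54.1% of all genes) to 59 in replicate 2 alone (86.8%, against 63.5%). Without 1 replicate the range was 55 to 59. With the shorter list 18 of the 36 ligands and 27 of the 32 receptors counted. At the gene start alone 48 members counted (70.6%, against 55.9%). In replicate 2 alone Ntn1, Ntn3, Ntn5 and Ntng1 also count, and a window of 2000 bp adds Ntn3 and Ntn5. The members' median promoter height was 1.68 in either replicate alone, 1.65 with a 500 bp window, 1.84 with 2000 bp, 1.68 at the gene start alone, 1.98 with the shorter list, 1.95 with peaks at or above the median height and 1.83 when peaks had to overlap by 50% of the shorter one. It lay below the all-gene median in each of these. The median distal density was 0.245 to 0.283 without 1 replicate, 0.133 with a 2000 bp window, 0.249 at the gene start alone, 0.0217 with the shorter list, 0.120 with the taller peaks and 0.145 when start sites of all gene types were left out. The median number of distal regions was 3 to 4 without 1 replicate, 3 at the gene start alone, 1 with the shorter list, 1 with the taller peaks and 4 with a 50 kb flank. The share of members with a promoter footprint in both libraries was 61.8% with the shorter list and 75.0% to 86.8% without 1 replicate. The median number of footprints per promoter region was 5 without replicate 1 and 4 without replicate 2. Fewer peaks enter with the shorter list and the taller peaks, and more without 1 replicate; for the other moves the cause was not tested. No paired analysis was possible because the 2 libraries form 1 group. Read depth, not given in the sources used here, limits what an absent peak can show.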
